A study of Mus musculus with 12 samples.

Results

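The genes of the cytosolic ribosomal proteins and of their testis paralogues were followed in mouse testis. A gene was taken as a member when its symbol was Rpl or Rps with a number and at most 1 letter (a, x, l or y), or was Rplp0, Rplp1, Rplp2 or Rpsa, and 81 of the 20718 genes of the table met this rule. They were 43 proteins of the large subunit, 30 of the small subunit, 3 of the stalk and 5 paralogues (Rpl10l, Rpl39l, Rpl3l, Rps27l and Rpl32l). All 81 were matched by gene ID to RefSeq, lay on 19 chromosomes, and 4 of them (Rpl10, Rpl39, Rpl36a and Rps4x) were on the X chromosome.

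The ribosome has a large and a small subunit, and nearly every ribosomal protein is present in one copy per ribosome, so the messenger RNAs of these genes are made at high levels in every cell that grows. Many of them start with a run of pyrimidine bases, the terminal oligopyrimidine tract, through which their translation follows growth signals. In the male germ line the X chromosome is silenced in meiosis. Rpl10l and Rpl39l are autosomal copies of the X-linked Rpl10 and Rpl39 that are expressed mainly in the testis and are needed for normal male fertility in mice.

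RNA was sequenced from whole testis of young adult male mice (strain labelled IRC, named ICR in the methods) whose testes had been injected with lentivirus some weeks before. The 4 groups had 3 libraries each. F0_3NC received the LV3 control virus with a control hairpin, and F0_5251KD the same backbone with short hairpin RNAs against the long non-coding RNA lncRNA5251. F0_5NC received the empty LV5 vector, and F0_5251OV the same backbone with full-length lncRNA5251. Animals of all 4 groups were injected with virus. The cell types that the virus entered are not given, nothing in the labels shows whether a group's 3 libraries are 3 animals, so its p-values measure the spread between libraries, which may be technical. The knockdown was compared with F0_3NC, the overexpression with F0_5NC, and the 2 controls with each other. The control contrast shares F0_3NC with the first comparison and F0_5NC with the second, and backbone, injection and any day of handling cannot be told apart in it.

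Each library held between 15431383 and 16355720 estimated counts. The target lncRNA5251 has no row under that name, and its own level was not analysed here. Markers of all germ cell stages and of the somatic cells of the testis were detected in every library, with elongated spermatid markers summing to between 23787 and 29242 counts scaled to library size (CPM) and Sertoli cell markers to between 902 and 1837 CPM. Epididymis markers summed to between 21.95 and 125 CPM in F0_5NC and between 6.50 and 12.8 CPM in F0_3NC. In bulk tissue, fewer cells of a type and less RNA per cell cannot be told apart.

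The coding sequences of the 2 X-linked genes with testis paralogues are shown with those of the paralogues, since reads are assigned to parent or copy through the bases at which they differ. The sequences are from GENCODE M21 (GRCm38), and capitals mark the bases that differ within the pair. Rpl39 (minus strand, 3 exons) has its coding exons, without the stop codon, within chrX:37082704-37085127, and Rpl39l (plus strand, 3 exons) within chr16:10174310-10174462. The whole reading frame of each follows.
Rpl39: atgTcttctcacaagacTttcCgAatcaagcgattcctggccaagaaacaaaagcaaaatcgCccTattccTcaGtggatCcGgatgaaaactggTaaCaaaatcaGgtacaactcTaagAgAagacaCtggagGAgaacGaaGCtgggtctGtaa
Rpl39l: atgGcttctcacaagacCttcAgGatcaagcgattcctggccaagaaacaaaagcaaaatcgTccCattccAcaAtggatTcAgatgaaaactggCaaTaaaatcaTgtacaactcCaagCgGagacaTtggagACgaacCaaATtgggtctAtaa

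Over 156 bases, 23 differed and 133 were identical (85.3%), and the longest stretch that the transcripts shared was 38 bases. Of the 23 differences, 16 were at the last position of a codon. Rpl10 (plus strand, 6 exons) has its coding exons within chrX:74271002-74273064. Rpl10l (minus strand) is a gene of 1 exon with its reading frame at chr12:66283716-66284357. The first part of each reading frame is shown, again with differing bases in capitals.
Rpl10: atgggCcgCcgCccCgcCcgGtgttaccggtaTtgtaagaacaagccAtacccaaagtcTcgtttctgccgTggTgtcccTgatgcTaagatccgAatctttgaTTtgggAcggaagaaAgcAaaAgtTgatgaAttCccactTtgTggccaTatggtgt
Rpl10l: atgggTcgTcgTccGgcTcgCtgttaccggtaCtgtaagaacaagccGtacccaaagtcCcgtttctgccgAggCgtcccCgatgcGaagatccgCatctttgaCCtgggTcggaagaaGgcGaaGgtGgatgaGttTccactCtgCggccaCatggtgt

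Over the whole reading frame of 645 bases, 98 bases differed (84.8% identity), 89 of them (90.8%) at the last position of a codon, and the longest shared stretch of the transcripts was 23 bases. The share of G or C at the last codon position was 57.2% in Rpl10 and 76.7% in Rpl10l, while in the other pair it was 57.7% for Rpl39 and 53.8% for Rpl39l. The share was thus higher in the copy than in the parent for Rpl10l and lower for Rpl39l.

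The starts of 61 members were in the RefSeq promoter table (GRCm38.p6). Within 20 bases before to 30 bases after the start, on the strand of the gene, a run of at least 8 bases that were each C or T was present in 34 of the 61 members (55.7%), against 21.5% of the 27025 genes of the table. The letters CTTTCC were present in 19.7% of members and 2.8% of all genes, and CTCTTT in 18% and 2.1%. These letters were chosen with the members' sequences in view, only the strand of the gene was searched, and the motifs overlap each other and the run. The windows of 30 bases from 10 bases before the start are shown for 2 members with long runs (Rpl13a and Rps10) and for the paralogue pairs. The longest run of C or T is in capitals. Rpl13a and Rps10 had an unadjusted edgeR p under 0.05 between the control groups, but so did members with shorter runs, such as Rpl26 (3 bases), Rpl36a (5) and Rpl28 (11). Some members with longer runs, such as Rpl27a (20 bases), are not shown. The window of Rpl13a is chr7:45128726-45128755 (minus strand), that of Rps10 chr17:27635225-27635254 (minus), Rpl39 chrX:37085203-37085232 (minus), Rpl39l chr16:10170218-10170247 (plus), Rpl10 chrX:74270806-74270835 (plus) and Rpl10l chr12:66284382-66284411 (minus).
Rpl13a: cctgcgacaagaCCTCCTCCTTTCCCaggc
Rps10: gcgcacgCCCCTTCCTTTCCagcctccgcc
Rpl39: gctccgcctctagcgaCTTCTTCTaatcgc
Rpl39l: aggCCTTTCCggatttccggtggtcgccat
Rpl10: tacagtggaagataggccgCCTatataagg
Rpl10l: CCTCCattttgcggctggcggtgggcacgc

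The runs were 14 bases in Rpl13a and 13 in Rps10, against 8 in Rpl39, 7 in Rpl39l, 3 in Rpl10 and 5 in Rpl10l. The GENCODE transcripts whose reading frames are shown start outside these windows for Rpl10 (chrX:74270860) and Rpl39 (chrX:37085402). Runs at those starts were not read, so the short run of Rpl10 holds for the RefSeq start alone. A match is a description of these letters and not of a regulated site.

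The members were among the most abundant messenger RNAs of the testis. Levels are given in fragments per kilobase of transcript, scaled to library size (FPKM), as deposited, which allow genes to be compared per length. The median member had a mean of 244 FPKM over the 12 libraries, against 3.10 FPKM for the median gene of the table. In all, 66 of the 81 members had a mean above 100 FPKM, and 64 were in the top 5% of all genes. Proteins of the small subunit (median 275 FPKM) and the large subunit (median 242 FPKM) were at similar levels. The order of the members was nearly the same in every library, with Spearman's rho between any 2 libraries of 0.966 to 0.997 over the 81 members, which are not independent replicates. The median coefficient of variation of a member over all 12 libraries, groups included, was 8.3%.

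The 5 highest members were Rpl41 (mean 1388 FPKM), Rps27 (894), Rps28 (666), Rpl26 (599) and the stalk protein Rplp0 (591). Rpl41 encodes the smallest ribosomal protein and was the highest member in 12 of 12 libraries. Rps27 and Rps28 are small-subunit proteins, Rpl26 lies near the exit of the large subunit, and Rplp0 is the base of the stalk that binds the translation factors.

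**Figure D1:**
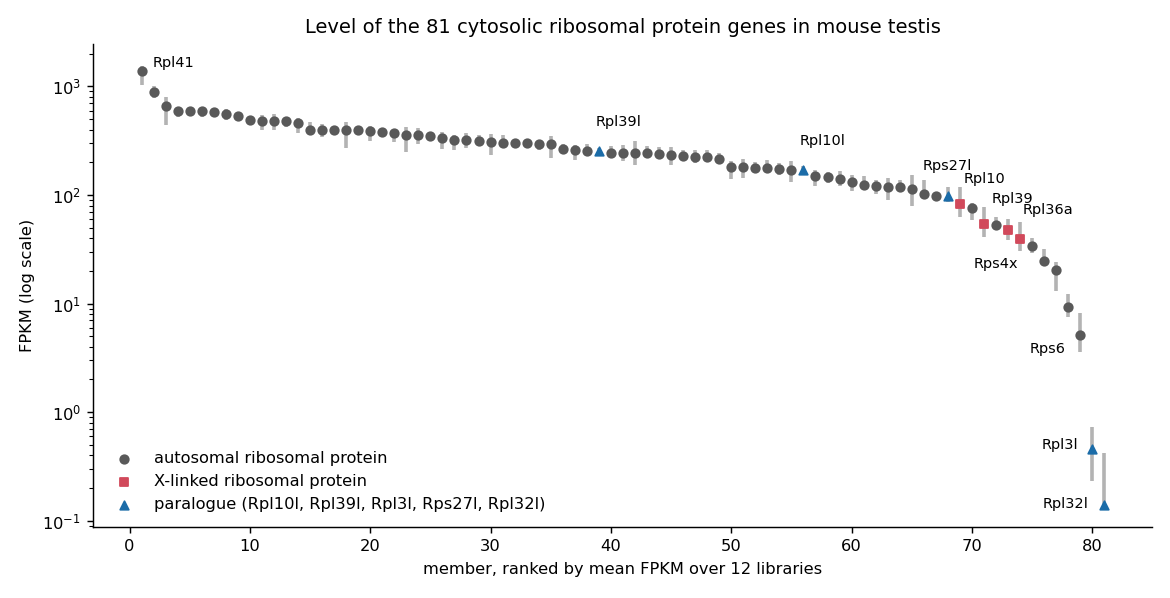
FPKM on a log scale (vertical axis) for the 81 members ranked by their mean over 12 libraries (horizontal axis). Points are means and grey bars run from the lowest to the highest library, with libraries at 0 left off the bars. The 4 X-linked genes (squares, means of 39.0 to 82.2 FPKM) lie near the right end, while the paralogues Rpl39l and Rpl10l (triangles, 254 and 171 FPKM) lie among the autosomal genes.

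The 4 X-linked members were all low for ribosomal protein genes. Mean levels were 82.2 FPKM for Rpl10, which helps to form the peptidyl transferase centre, 53.8 FPKM for Rpl39, a small protein of the exit tunnel, 47.6 FPKM for Rpl36a and 39.0 FPKM for Rps4x, a small-subunit protein. The median of the 72 autosomal members, paralogues left out, was between 249 and 305 FPKM per library, and all 4 X-linked genes were below it in every library. Only 7 of the 72 autosomal members (Rps20, Rps3, Rpl22, Rps15a, Rpl34, Rpl29 and Rps6) had a mean under that of Rpl10, the highest X-linked member. The level per length depends on the transcript chosen. The FPKM of Rps15a implied a length of 5004 bases, while GENCODE lists transcripts of 640 to 5179 bases for this gene. For members such as Rplp0 (1228 against 1358 bases) and Rpl10l (891 against 1023), the implied length was below the only GENCODE length. The median ratio of implied to median GENCODE length was 0.79. Scaling to the median GENCODE length was added after seeing the data, and it changes more than the choice of transcript. On that scale 5 of the 72 lay below the highest X-linked member, and the 4 X-linked genes stayed below the autosomal median of 196 FPKM. Processed copies of ribosomal protein genes in the genome can share reads with them, and the part of this in the low values was not tested. Estimated counts were not whole in 12 libraries for Rps6 and Rpl34 and in 11 for Rpl29. They were also not whole in 12 libraries for the higher members Rpl11 (372 FPKM) and Rplp2 (302 FPKM). Over the members, 18.3% of estimated counts were not whole, against 12% in the whole table, and 19 members had at least 1 such value.

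The testis paralogues exceeded their X-linked parents in every library. In F0_3NC, Rpl39l was at 241, 260.2 and 248 FPKM and Rpl39 at 48.7, 69.8 and 42.3 FPKM. In F0_5NC, Rpl39l was at 254, 253 and 256 FPKM and Rpl39 at 77.9, 41.0 and 55.7 FPKM. Rpl39l was also at 234 to 253 FPKM in F0_5251KD and 254 to 272 FPKM in F0_5251OV, so the values of the paralogue and of the parent did not overlap in any group. The ratio of Rpl39l to Rpl39 was 4.92 on average (range 3.26 to 6.18 over 12 libraries), with group means of 4.84 ± 1.07 in F0_3NC, 4.67 ± 1.45 in F0_5NC, 5.28 ± 0.791 in F0_5251KD and 4.88 ± 1.08 in F0_5251OV (SD, n = 3 each). Scaled to the median GENCODE length, Rpl39l was at 242 FPKM and Rpl39 at 26.5 FPKM, so the size of this ratio depends on the length used.

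Rpl10l was at 161, 164 and 165 FPKM in F0_3NC, 169, 173 and 165 in F0_5NC, 174, 174 and 162 in F0_5251KD, and 180.1, 185 and 174 in F0_5251OV. Rpl10 was at 66.6, 87.1 and 70.7 FPKM in F0_3NC, 119, 77.3 and 86.4 in F0_5NC, 92.0, 74.7 and 77.6 in F0_5251KD, and 88.6, 84.1 and 62.2 in F0_5251OV. The copy was above its parent in 12 of 12 libraries, and the parent varied more from library to library. The ratio of Rpl10l to Rpl10 was 2.13 on average (range 1.42 to 2.80), with group means of 2.21 ± 0.286, 1.86 ± 0.410, 2.11 ± 0.221 and 2.35 ± 0.403 in the same order of groups (SD, n = 3 each). Rpl36al, an autosomal copy of the X-linked Rpl36a that the symbol rule does not take in, was likewise 4.48 times its parent on average (range 3.53 to 5.62).

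The paralogues with an autosomal parent stood the other way. Rps27l, a copy of Rps27 known as a target of p53, was at 85.4 to 118 FPKM, a mean of 0.111 times Rps27. Rpl3l, which replaces Rpl3 in heart and skeletal muscle, was at 0.23 to 0.73 FPKM, a mean of 0.004 times Rpl3, with 11.0 counts per library on average. Rpl32l was listed at 0 to 0.42 FPKM with a mean of 1.0 count per library and was the 1 member that did not pass the filter on low counts. These 2 were the only members below 1 FPKM on average.

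**Figure D2:**
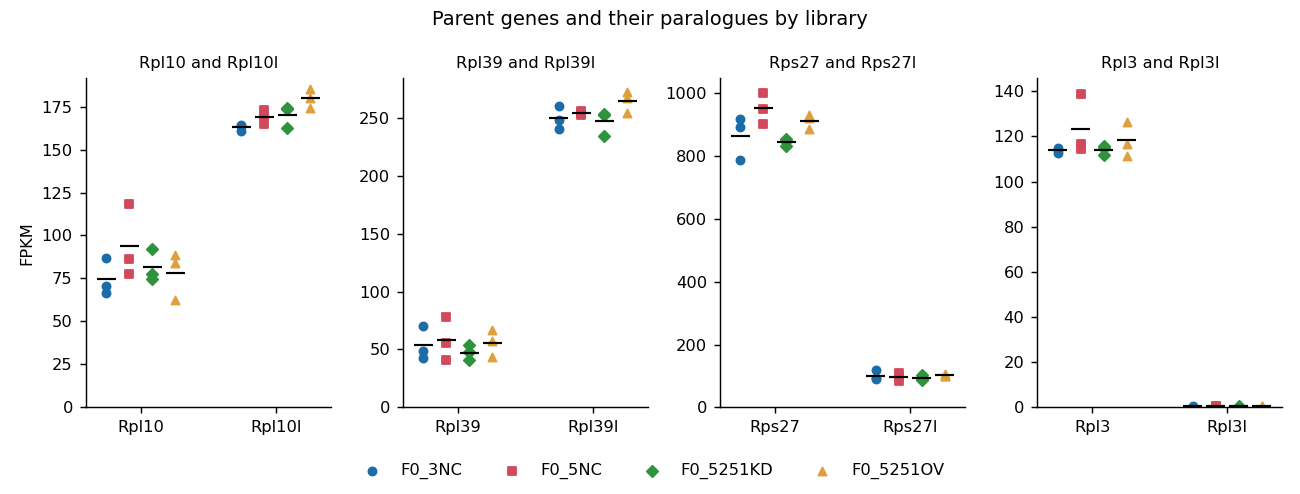
FPKM (vertical axes, each from 0) of 4 parent genes and their paralogues in 12 libraries, with colours and symbols for the groups and short lines for group means of 3 libraries. Rpl10l and Rpl39l lie above their X-linked parents in every library, and Rps27l and Rpl3l lie below their autosomal parents.

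Libraries of different groups were not equally alike. F0_3NC replicate 2 and F0_5251OV replicate 1 stood apart from the other 10 libraries and resembled each other. For each member the log2 CPM in these 2 libraries was set against the mean of the 10 others. Over 79 members (Rpl3l and Rpl32l left out), the 2 deviations fell on the same side of 0 for 68 members and had a Pearson's r of 0.91, which describes these libraries and rests on genes that are not independent. Among the 66 pairs of libraries, with deviations taken from the mean of all 12, this pair had the highest r (0.87), and the next pair reached 0.58. Both libraries were the lowest 2 of the 12 in FPKM for 25 members and the highest 2 for 1 member, Rps15a.

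Rps28 was at 442 FPKM in F0_3NC replicate 2 and 507 FPKM in F0_5251OV replicate 1, and between 623 and 791 FPKM in the 10 others. Rpl36 was at 269 and 325 FPKM in the 2 libraries against 380.0 to 473 FPKM in the others. Rps15 was at 247 and 274 FPKM against 341 to 426 FPKM. The deviations were lower for members whose coding sequence holds more G or C, with r of -0.59 in F0_3NC replicate 2 and -0.55 in F0_5251OV replicate 1 over the 79 members. With deviations from the mean of all 12 libraries, r was between -0.04 and 0.52 in the 10 others, highest in F0_5NC replicate 2. Deviations from a shared mean sum to 0 for each gene, so the 2 negative libraries push the others towards positive r. These values therefore cannot show whether the 10 others followed GC content. In the same 2 libraries, spermatocyte markers summed to 6089 and 6004 CPM, the highest of the 12, elongated spermatid markers to 23787 and 24750 CPM, the lowest of the 12, and Sertoli cell markers to 902 and 935 CPM, also the lowest. The part of these values in the member levels was not tested. The counts of members by direction, and the named members that moved most with these libraries, are given with and without them.

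**Figure D3:**
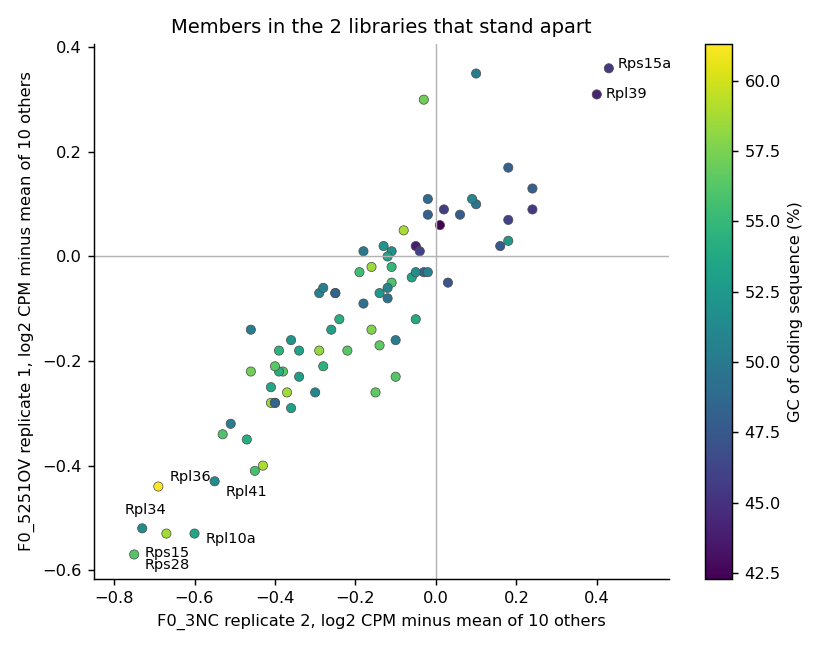
Deviation of 79 members from the mean of the 10 other libraries (log2 CPM) in F0_3NC replicate 2 (horizontal axis) and F0_5251OV replicate 1 (vertical axis), coloured by the GC content of the coding sequence in percent. Most members lie below 0 in both libraries, with Rps28, Rpl36 and Rpl34 (GC content 51.4%) among the lowest. Rps15a and Rpl39 have a low GC content (45.5% and 44.2%) and lie above 0 in both. Rpl39l and Rpl30 have a lower one (42.3% and 43.9%) and lie near 0.

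The share of all estimated counts that fell on the 81 members was largest in F0_5NC. It was 1.21%, 1.09% and 1.21% in the F0_3NC libraries, 1.39%, 1.29% and 1.29% in F0_5NC, 1.27%, 1.22% and 1.16% in F0_5251KD, and 1.16%, 1.30% and 1.25% in F0_5251OV. The 3 values of F0_5NC were above the 3 of F0_3NC, while each treated group overlapped its own control. Group means were 1.17 ± 0.069%, 1.33 ± 0.058%, 1.22 ± 0.056% and 1.24 ± 0.073% (SD, n = 3) in the same order. No test was made on this summed share.

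Whether the knockdown changed the members was asked in F0_5251KD against F0_3NC. edgeR called 0 of the 80 members tested at an adjusted p under 0.05, as did DESeq2 and limma. In all, 4 of 16296 genes (0.0245%) were called by edgeR and 20 by DESeq2. Of the members, 52 were higher and 28 lower, and the median log2 fold change was 0.036 beside -0.004 for all genes tested. The direction rested on 1 library. Without F0_3NC replicate 2, 27 members were higher and 53 lower (median -0.016), and without both libraries that stood apart, 36 were higher and 44 lower (median -0.005). An unadjusted p under 0.05 was found for 3 members (3.75%), beside 4.74% of all genes. Groups did not overlap for 3 members that were higher (3.75%) and 5 that were lower (6.25%), beside 5.52% and 6.28% of all genes, so these shares were at or below the background.

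By subunit, 29 of 43 large-subunit members and 21 of 30 small-subunit members were higher in F0_5251KD, and none of the 3 stalk members was. Rpl34 (0.31) and Rpl36 (0.24) were among the 3 largest positive log2 fold changes, and the 3 largest negative ones were those of Rps6 (-0.53), Rps15a (-0.19) and Rps27a (-0.19).

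Rps6, the small-subunit protein that S6 kinases phosphorylate, was at 5.25, 5.31 and 5.88 FPKM in F0_3NC and at 3.55, 3.6 and 4.36 FPKM in F0_5251KD. All 3 knockdown values were lower, with a log2 fold change of -0.53 (SE 0.22, interval -1.0 to -0.05) and an edgeR adjusted p of 0.897, on a gene with a mean of only 102 counts per library. Rps27a, made as a fusion of ubiquitin and a ribosomal protein, was at 227, 258 and 225 FPKM in F0_3NC and at 209, 205 and 210.0 FPKM in F0_5251KD. The groups did not overlap here either (log2 fold change -0.19, SE 0.0658, edgeR adjusted p = 0.897).

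For Rpl34 and Rpl36 the groups overlapped. Rpl34 was at 17.9, 12.9 and 23.5 FPKM in F0_3NC and 23.0, 23.9 and 20.4 FPKM in F0_5251KD. Rpl36 was at 401, 269 and 390 FPKM in F0_3NC and 445, 380.0 and 423 FPKM in F0_5251KD. The lowest value of each gene was that of F0_3NC replicate 2, and without the 2 libraries that stood apart the log2 fold changes were 0.11 and 0.07. Rps15a, at 22.4, 31.9 and 22.9 FPKM in F0_3NC and 23.4, 22.4 and 22.6 FPKM in F0_5251KD, had its highest value in the same library, and its log2 fold change went from -0.19 to -0.01 without it and F0_5251OV replicate 1.

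Whether overexpression changed the members was asked in F0_5251OV against F0_5NC. edgeR called 0 of 80 members, as did DESeq2 and limma, beside 0.0% of all genes tested by edgeR. DESeq2 called 30 genes in all. Of the members, 66 were lower and 14 higher, and their median log2 fold change was -0.057 beside -0.002 for all genes. Without F0_5251OV replicate 1, 48 were lower and 32 higher (median -0.012), and without both libraries that stood apart 52 were lower and 28 higher (median -0.026). An unadjusted p under 0.05 was found for 3 members (3.75%), all lower, beside 8.77% of all genes, and for none without F0_5NC replicate 1. Groups did not overlap for 10 members that were lower (12.5%) and 1 that was higher (1.25%), beside 6.57% and 7.33% of all genes.

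In this comparison 37 of 43 large-subunit, 26 of 30 small-subunit and 2 of 3 stalk members were lower. The largest falls were in Rpl13a (-0.28), Rps4x (-0.27) and Rpl36a (-0.26), and the 4 X-linked members had a median of -0.24. The X-linked values leaned on F0_5NC replicate 1, which held the highest level of all 4 X-linked genes, and without it their median was -0.10, with -0.12 for Rps4x, -0.07 for Rpl10 and a change of sign for Rpl39 (from -0.03 to 0.18). The X-linked median was -0.30 without F0_5251OV replicate 1 and -0.32 without both libraries that stood apart. Rpl13a, known also for silencing of inflammatory messenger RNAs once it is released from the ribosome, was at 312, 267 and 267 FPKM in F0_5NC and 194, 237 and 243 FPKM in F0_5251OV. The groups did not overlap, with an SE of 0.122, an interval of -0.54 to -0.02 and an edgeR adjusted p of 0.555. The lowest value was that of F0_5251OV replicate 1, and the log2 fold change was -0.17 without it and -0.18 without both libraries that stood apart. Rpl36a was at 60.4, 50.3 and 56.1 FPKM in F0_5NC and 52.0, 46.5 and 38.3 FPKM in F0_5251OV. These FPKM values overlapped, while the counts scaled by edgeR did not (SE 0.109, adjusted p = 0.552). Rps4x was at 56.1, 37.1 and 40.5 FPKM in F0_5NC and 40.6, 38.0 and 30.5 FPKM in F0_5251OV, and the groups overlapped (edgeR adjusted p = 0.608).

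The 3 largest positive values were those of Rpl10l (0.13), Rpl29 (0.13) and Rps27l (0.11), of which 2 are paralogues. Of the other paralogues tested, Rpl39l had a value of 0.08 and Rpl3l one of -0.14 (interval -1.07 to 0.79). Rpl10l had an SE of 0.0671, an interval of -0.02 to 0.27 and an edgeR adjusted p of 0.589, while its parent Rpl10 had a log2 fold change of -0.22 (interval -0.53 to 0.08, edgeR adjusted p = 0.641). Rpl29, at 8.52, 9.76 and 9.55 FPKM in F0_5NC and 12.4, 8.64 and 9.69 FPKM in F0_5251OV, had its highest value in F0_5251OV replicate 1, and the log2 fold change was 0.03 without the 2 libraries that stood apart and 0.04 without F0_5NC replicate 1.

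The 2 control viruses were compared to give the background between backbones. In F0_3NC against F0_5NC, 77 of 80 members were lower. The other 3 were higher, and the members' median log2 fold change was -0.153 beside 0.00 for all genes tested. edgeR called 0 members, as did limma, while 54 of 16296 genes (0.331%) were called in all by edgeR. DESeq2 called 1 member and 138 genes in all. An unadjusted p under 0.05 was found for 13 members (16.2%), all lower, beside 11.9% of all genes. Groups did not overlap for 35 members that were lower (43.8%) beside 7.41% of all genes, and for 1 that was higher (1.25%) beside 9.59%. Of the 35, 15 were large-subunit members, 18 small-subunit members and 2 stalk members.

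All 43 large-subunit members, 28 of 30 small-subunit members, all 3 stalk members and all 4 X-linked members were lower in F0_3NC, and the medians were -0.163, -0.161, -0.146 and -0.277. Leaving out the 2 libraries that stood apart gave 77 of 80 members lower again, with a median of -0.104 and 15 members with an unadjusted p under 0.05 (18.8%, beside 8.87% of all genes). Without F0_3NC replicate 2 alone, 76 were lower with a median of -0.086 and 4 with an unadjusted p under 0.05 (5%, beside 7.6% of all genes), and without F0_5NC replicate 1, the library with the largest member share, 73 were lower with a median of -0.160. Under all other settings between 71 and 78 members were lower. Scaling by library totals alone moved the median to -0.196 and that of all genes to -0.039.

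**Figure D4:**
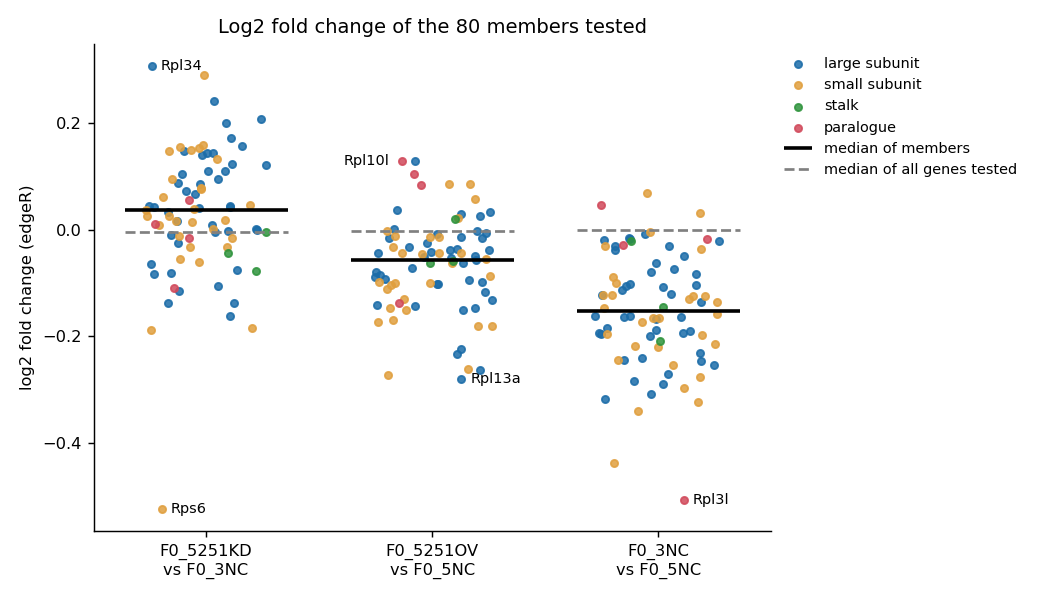
Log2 fold change from edgeR (vertical axis) of the 80 members tested in 3 comparisons (horizontal axis), coloured by role, with the median of the members (solid line) and of all genes tested (dashed line). In F0_3NC against F0_5NC 77 of 80 points lie below 0, with a median of -0.153, and the comparisons share control libraries.

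Rpl13a was at 225, 188 and 252 FPKM in F0_3NC, below all 3 values of F0_5NC given above, with a log2 fold change of -0.32 (SE 0.122) and an edgeR adjusted p of 0.368. It was -0.20 without F0_3NC replicate 2, the lowest library. Rps15, a small-subunit protein at the subunit interface, was at 371, 247 and 358 FPKM in F0_3NC and 426, 424 and 391 FPKM in F0_5NC. The groups did not overlap, the log2 fold change was -0.34 and the edgeR adjusted p was 0.43. Without the 2 libraries that stood apart it was -0.17. Rps4x, at 30.7, 44.2 and 32.2 FPKM in F0_3NC, overlapped F0_5NC, with a log2 fold change of -0.32 and an edgeR adjusted p of 0.429. That value was -0.17 without F0_5NC replicate 1 and -0.49 without the 2 libraries that stood apart. Rpl3l had the most negative estimate (-0.51), but with 11.0 counts per library its interval ran from -1.47 to 0.45. Others with an unadjusted p under 0.05 included Rpl26, Rpl28, Rpl31, Rplp2, Rps10, Rps14, Rps16, Rps21, Rps29 and Rpl36a, with log2 fold changes between -0.29 and -0.19. The 3 members that were higher were Rps15a (0.07), Rps27l (0.05) and Rps24 (0.03), and Rps15a and Rps27l were lower (-0.12 and -0.07) without the 2 libraries that stood apart.

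For the testis paralogues the estimates between the controls were near 0. The log2 fold change was -0.03 for Rpl10l (interval -0.17 to 0.12) and -0.02 for Rpl39l (interval -0.16 to 0.13), against -0.31 for Rpl10 (interval -0.62 to 0.00) and -0.12 for Rpl39 (interval -0.56 to 0.31). Both parents moved with single libraries. Rpl10 was between -0.41 without F0_3NC replicate 2 and -0.16 without F0_5NC replicate 1, and Rpl39 went from -0.32 to 0.09 in the same way. The intervals of copy and parent overlapped in both pairs, and the difference within a pair was not tested.

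**Figure D5:**
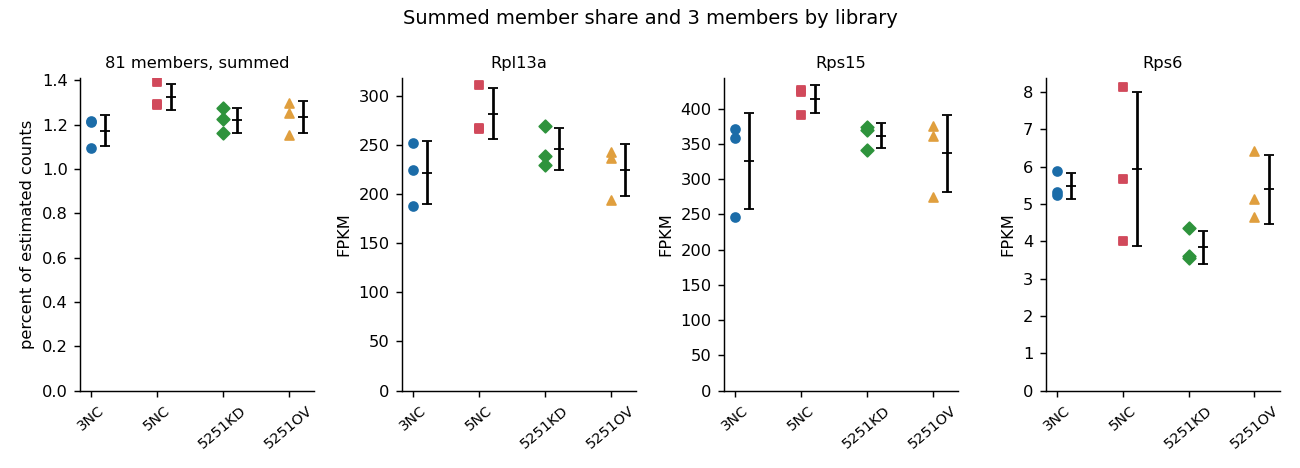
Share of estimated counts on the 81 members in percent (left) and FPKM of Rpl13a, Rps15 and Rps6 (vertical axes, from 0) in 12 libraries by group, with bars for mean ± SD (n = 3). The 3 F0_5NC libraries lie between 1.29% and 1.39%, above the 3 F0_3NC libraries at 1.09% to 1.21%.

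Lists of other translation genes were more evenly divided between the controls, and the difference from the members was not tested. Of 30 ribosome biogenesis genes, such as Npm1, Ncl and Fbl, 16 were lower and 14 higher (median -0.005). Of 12 elongation factors and other genes with a terminal oligopyrimidine tract 6 were lower and 6 higher (median 0.016), and of 27 initiation factors 9 were lower and 18 higher (median 0.051). Of 78 mitochondrial ribosomal proteins, which build the ribosome of the mitochondrion, 48 were lower and 30 higher (median -0.058). Of the 6 cytosolic ribosomal proteins that the symbol rule leaves out, 4 were lower (among them Fau -0.22, Rpl7l1 -0.14 and Rps3a1 -0.07) and 2 higher (Rpl36al 0.07 and Rpl22l1 0.05). edgeR called none of the genes of these 5 lists, beside 0.331% of all genes. An unadjusted p under 0.05 was found for 1, 1, 5, 3 and 0 of them in this order (3.33%, 8.33%, 18.5%, 3.85% and 0%), beside 11.9% of all genes. Groups did not overlap for 33.3% of initiation factors that were higher and 3.7% that were lower, beside 9.59% and 7.41% of all genes. For mitochondrial ribosomal proteins these shares were 2.56% higher and 14.1% lower.

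Sertoli cell markers were lower in F0_3NC together with the members. All 12 markers were lower (median -0.271), 6 of them with an unadjusted edgeR p under 0.05 (50%, beside 11.9% of all genes), and none was called. Their sum was 1185, 902 and 1053 CPM in F0_3NC and 1837, 1173 and 1175 CPM in F0_5NC, and the highest value was that of F0_5NC replicate 1. Endothelial markers were lower in 8 of 8 (median -0.156) and spermatocyte markers higher in 11 of 12 (median 0.184). Leydig cell markers were higher in 5 of 9 between the controls (median 0.058). Macrophage markers were lower in 6 of 8 (median -0.326) and peritubular and smooth muscle markers in 4 of 7 (median -0.202). Round spermatid markers were higher in 8 of 10 (median 0.078). Epididymis markers were lower in 4 of 5 (median -3.785), and 1 of the 5 was called by edgeR, beside 0.331% of all genes. In F0_5251OV against F0_5NC, where 66 members were lower, Sertoli cell markers were lower in 12 of 12 (median -0.226), with a sum of 935 to 1140 CPM in F0_5251OV. Leydig cell markers were lower in 9 of 9 there (median -0.214) and endothelial markers in 8 of 8 (median -0.180). Peritubular and smooth muscle markers were lower in 6 of 7 (median -0.36) and macrophage markers in 7 of 8 (median -0.412). Spermatocyte markers were higher in 9 of 12 (median 0.116) and elongated spermatid markers in 9 of 10 (median 0.046). In F0_5251KD against F0_3NC, Sertoli cell markers were higher in 8 of 12 (median 0.105) and endothelial markers in 8 of 8 (median 0.249). Leydig cell markers were higher there in 6 of 9 (median 0.151), and spermatocyte markers were lower in 11 of 12 (median -0.13). The part of these markers in the member levels was not tested.

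The effects of knockdown and overexpression were set against each other in 1 test per gene. edgeR and DESeq2 called 0 of 80 members, as did limma, beside 0.0% of all genes tested by edgeR. The difference was above 0 for 60 of 80 members, with a median of 0.086 beside 0.003 for all genes, and for 50 of 80 (median 0.027) without the 2 libraries that stood apart. An unadjusted p under 0.05 was found for 2 members (2.5%), among them Rpl13a (0.42, edgeR adjusted p = 0.42), beside 11.3% of all genes. The value for Rpl13a was 0.21 without the 2 libraries that stood apart.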

How the data were processed

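Messenger RNA of mouse testis was sequenced in 4 groups of 3 libraries. The authors deposited 1 table that holds estimated counts and FPKM values. The submitters' processing notes name mm10, and the methods name SOAPaligner. Which tool made the estimated counts was not stated in any source used. FPKM values deposited by the authors are counts scaled to transcript length and library total. Strand is not stated, so overlapping genes cannot be told apart. In the table, 18 columns of per-sample values matched no sample and were not used.

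Members were found by symbol. Members and gene lists were chosen with earlier results of these data known. Named genes were those called in any test, the 3 largest positive and 3 largest negative log2 fold changes per comparison at a mean of at least 1 CPM, the 5 highest by FPKM, the paralogues with their parents, the X-linked members, and those that failed the filter. Some genes that the rule takes in are not reported here. Estimated counts were rounded to whole numbers and analysed by the quasi-likelihood test of edgeR 4.0.16 (R 4.3.3) after TMM scaling and filterByExpr. The test was two-sided, and 1 model held the 12 libraries, with 8 residual degrees of freedom. Adjustment followed Benjamini and Hochberg (Benjamini-Hochberg) over 16296 genes, threshold 0.05. The study's methods name DEGseq, and edgeR was used in its place because replicates were present. DESeq2 1.42.0 and limma 3.58.1 on log2(FPKM + 1) or log2(FPKM + 0.1) were alternatives. FPKM groups were described by their values. Chi-square per gene between libraries of 1 group was between 3.73 and 20.2, so none were the same library. Scripts were tested on simulated data. Depth was 15431383 to 16355720 counts per library, and intervals of fold changes cover the spread between libraries. Coding sequences came from GENCODE M21, promoters and positions from RefSeq (GRCm38.p6).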

Additional observations from a re-analysis of the deposited data

How the results depend on the processing

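The analysis was repeated under 22 other settings. Counts of called members were 0 throughout except in F0_3NC vs F0_5NC. There DESeq2 called 1 member among 138 genes in all, and edgeR without the 2 libraries that stood apart called 1 member among 26 genes. Leaving out 1 library at a time gave 0 to 1 members, beside 30 to 68 genes in all. The median log2 fold change in F0_3NC vs F0_5NC was -0.185 to -0.086 over the fits without 1 library. In F0_5251KD vs F0_3NC that range was -0.016 to 0.067, so the sign depended on F0_3NC replicate 2, and in F0_5251OV vs F0_5NC it was -0.094 to -0.012. The median of the difference of effects was 0.153 with library totals alone and 0.027 without the 2 libraries that stood apart, an exclusion chosen after seeing the data. The member share was 3.83%, 4.25%, 3.94% and 3.97% of summed FPKM in F0_3NC, F0_5NC, F0_5251KD and F0_5251OV, a larger share than of counts.

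Members with an unadjusted p under 0.05 between the controls numbered 13 (16.2%, beside 11.9% of all genes), against 24 with DESeq2 (30%, beside 10.5%), 36 with library totals alone (45%, beside 11.6%, with the median of all genes at -0.039), 7 with the replicate block (8.75%, beside 10.4%) and 4 without F0_3NC replicate 2 (5%, beside 7.6%). The share of members was thus above that of all genes under some settings and below it under others. With library totals alone, 60 members were higher and 20 lower in the knockdown.

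With the replicate number as a block, 0 members were called in any comparison and medians were 0.036, -0.057, -0.155 and 0.075. Same-numbered libraries had correlations of deviations from -0.173 to 0.065, and differently numbered ones from -0.073 to 0.128. No pairing by number was thus seen in these values, and a pairing in handling was not tested.

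Some named members changed sign. With library totals alone these were Rps24 between the controls (-0.008) and, in the knockdown, Rps27 (0.002) and Rpl39l (0.002). Rpl3 in the knockdown was between -0.005 and 0.012 (DESeq2 0.003, upper-quartile scaling 0.001, library totals 0.012, no filter 0.003, the CPM filter 0.006, limma 0.004, without the 2 libraries 0). Rpl3l there was -0.026 with limma at a pseudocount of 1, -0.142 at 0.1 and -0.03 with the block. Without the 2 libraries, F0_3NC vs F0_5NC gave -0.069 for Rps27l and -0.118 for Rps15a, and the knockdown gave 0.053 for Rpl39, 0.006 for Rpl39l and 0.001 for Rps27l. Leaving out 1 library, the controls gave -0.05 to 0.106 for Rps27l, -0.1 to 0.164 for Rps15a, -0.075 to 0.018 for Rpl10l, -0.322 to 0.089 for Rpl39 and -0.066 to 0.011 for Rpl39l. The knockdown gave -0.293 to 0.042 for Rpl39, -0.047 to 0.021 for Rpl39l, -0.108 to 0.044 for Rps27, -0.021 to 0.005 for Rpl3 and -0.616 to 0.247 for Rpl3l. Overexpression gave -0.206 to 0.18 for Rpl39, -0.069 to 0.031 for Rpl3 and -0.431 to 0.149 for Rpl3l. The cause of each change was not tested. At this depth Rpl3l had 11.0 counts per library, where fold changes are not well determined.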
